A study of Mus musculus with 24 samples.

Results

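The replication-dependent histone genes were described in the chromatin accessibility data of mouse blood stem and progenitor cells with and without Daxx. The members were all genes whose GENCODE vM21 symbol begins with Hist1h, Hist2h, Hist3h or Hist4h, which gave 70 of 55413 annotated genes. The rule used gene symbols alone, but it was chosen with earlier results of these data known. Accessibility had been measured by ATAC-seq, in which a transposase cuts open chromatin and inserts sequencing adapters there. The series held 24 libraries in 11 groups, all from bone marrow of C57BL/6 mice. Long-term haematopoietic stem cells (LT-HSC), common myeloid progenitors (CMP) and granulocyte-monocyte progenitors (GMP) had 2 Daxx-WT and 2 Daxx-KO libraries each. LT-HSC taken 3 days after induction (3 d.p.i.) had 2 Daxx-WT and 3 Daxx-KO libraries. KLS cells, a Kit-positive, lineage-negative, Sca-1-positive mixture of stem and multipotent progenitor cells, taken 3 weeks after induction (3 w.p.i.), had 2 Daxx-WT, 3 Daxx-KO and 2 double-knockout (DKO) libraries. Daxx-WT mice carried Daxx +/+ Cre +/-, Daxx-KO mice Daxx F/F Cre +/- and DKO mice both floxed alleles, Daxx F/F and Pu.1 F/F, with Cre +/-, so that every group, controls included, carried Cre. A legend of the study describes 1 of the 2 Daxx-WT libraries of LT-HSC 3 d.p.i. as Daxx +/F, while the labels give both as +/+, so 1 control may carry 1 floxed allele. The floxed Daxx allele had loxP sites around exons 2 to 7, and per the study's methods the LT-HSC, CMP and GMP without a time in their labels came from tamoxifen-treated RosaCreERT2 mice 3 weeks after treatment, while the Daxx F/F line crossed to Pu.1 F/F carried the interferon-inducible Mx1Cre. The deletion was therefore induced in many cell types of the animal, and the sorted cells were not the only ones to lose Daxx. Per the methods, Mx1Cre mice were induced by intraperitoneal injections of pI:pC. RosaCreERT2 mice used for genomic work at 3 d.p.i. received tamoxifen by intraperitoneal injection. The ATAC-seq methods do not name the Cre driver of the KLS libraries. Mice of both sexes were usually treated between 5 and 11 weeks of age per the methods, and the labels give no age per library.

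Replication-dependent histone genes supply the core histones H2A, H2B, H3 and H4 and the linker histone H1 that package newly copied DNA. They are short genes without introns, lie in dense clusters, and are transcribed mainly in S phase under NPAT, the coactivator that marks histone locus bodies. Their mRNAs end in a conserved stem-loop, bound by SLBP and processed with the U7 snRNP, in place of a poly(A) tail. DAXX is a chaperone of the replication-independent variant H3.3, which is encoded outside these clusters, and Pu.1 (Spi1) is the transcription factor that drives myeloid and lymphoid differentiation.

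The 70 genes comprised 6 H1, 20 H2A, 19 H2B, 12 H3 and 13 H4 genes, of which 67 were annotated as protein-coding. Cluster Hist1 on chromosome 13 held 56 of them, in a block of 24 genes over 328 kb (chr13:21715763-22043676, mm10), a second block of 31 genes over 404 kb (chr13:23531050-23934851) and the lone pseudogene Hist1h2al. Hist2 held 10 genes within 50.3 kb (chr3:96219865-96270132), Hist3 held 3 (chr11:58948920-58956830) and Hist4h4 stood alone on chromosome 6. In 15 places 2 of the genes started within 1 kb of each other on opposite strands, 14 of them an H2A gene facing an H2B gene and 1 an H2B gene facing an H3 gene. Neighbouring members therefore shared regulatory DNA, peaks and sites, and were not independent observations.

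The 3′ stem-loop was the sequence most of these genes had in common. A 16-base stem-loop was found in 65 of the 67 protein-coding members, 21 to 58 bases after the stop codon with a median of 30, and in 5 of 21685 other protein-coding genes (0.0231%) within the same 150 bases. Hist2h2be and Hist1h2an were the members without a match in that window. The most frequent forms, read from the mm10 genome on the gene strand and present in 41, 9 and 8 members, are shown with the unpaired loop left in lower case and the 2 arms that pair with each other in capitals.
form in 41 members: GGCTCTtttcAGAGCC
form in 9 members: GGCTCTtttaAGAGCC
form in 8 members: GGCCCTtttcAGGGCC

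The promoters were read from RefSeq (GRCm38.p6) for 62 of the 70 members, from 250 bases before to 50 bases after the start, and short elements named in the histone literature were searched for by their letters. The CCAAT box (CCAAT, both strands), bound by NF-Y, was present in 53 of the 62 promoters (85.5%) against 37.9% of all 27025 promoters. It was found in all 6 H1, 18 H2A, 16 H2B and 10 H3 promoters but in 3 of 12 H4 promoters. A TATA box (TATAAA, gene strand) was present in 30 (48.4% against 8.88%). The octamer bound by OCT1 (ATTTGCAT, both strands) was present in 13 (21% against 1.75%), 7 of them H2A and 6 H2B genes. The E2F element (TTTCGCGC or TTTGGCGC, both strands) was present in 9 (14.5% against 0.833%), 5 H2A and 4 H2B genes. The H1 box (AAACACA, both strands) was present in 9 (14.5% against 7.14%), including 5 of the 6 H1 promoters. These are letter matches in a fixed window and were not measured as bound.

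The promoters of 4 members whose accessibility is described next are printed with these elements in capitals, from 5′ to 3′ on the gene strand. Reverse complements are included except for the TATA box. Hist1h1b (chr13:21780576-21780875, - strand) and Hist1h3c (chr13:23745472-23745771, - strand) had an open promoter in every group and a higher site in Daxx-KO LT-HSC. Hist1h4n (chr13:21832148-21832447, - strand) had a higher site in both LT-HSC and KLS without Daxx. Hist1h2ba (chr13:23934107-23934406, - strand), a testis-specific H2B gene, was in no peak of any group although it carried 4 of the 5 elements. The 295 bases between the starts of the divergent genes Hist1h2ak and Hist1h2bn (chr13:21753828-21754122, + strand) show the shared promoter of a typical H2A and H2B pair, with 3 CCAAT boxes. They also hold a TATA box on the - strand, the gene strand of Hist1h2ak, printed as tttata. It is left in lower case because the TATA box was marked on the printed strand only.
Hist1h1b: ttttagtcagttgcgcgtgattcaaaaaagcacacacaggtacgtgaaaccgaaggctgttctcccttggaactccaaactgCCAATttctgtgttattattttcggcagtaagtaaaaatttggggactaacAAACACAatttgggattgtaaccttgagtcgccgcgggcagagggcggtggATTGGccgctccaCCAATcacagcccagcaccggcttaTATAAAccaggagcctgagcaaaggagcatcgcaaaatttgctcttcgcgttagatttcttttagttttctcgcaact
Hist1h3c: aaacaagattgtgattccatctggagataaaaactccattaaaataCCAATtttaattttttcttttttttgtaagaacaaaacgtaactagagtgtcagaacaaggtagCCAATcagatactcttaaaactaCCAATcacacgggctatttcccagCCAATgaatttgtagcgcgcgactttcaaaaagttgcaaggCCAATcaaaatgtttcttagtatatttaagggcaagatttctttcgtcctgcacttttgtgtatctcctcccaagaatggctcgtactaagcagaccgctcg
Hist1h4n: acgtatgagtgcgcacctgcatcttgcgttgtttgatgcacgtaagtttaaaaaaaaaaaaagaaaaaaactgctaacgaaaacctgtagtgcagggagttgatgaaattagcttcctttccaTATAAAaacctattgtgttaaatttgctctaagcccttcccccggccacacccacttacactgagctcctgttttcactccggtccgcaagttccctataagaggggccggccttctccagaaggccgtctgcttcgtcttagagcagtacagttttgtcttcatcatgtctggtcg
Hist1h2ba: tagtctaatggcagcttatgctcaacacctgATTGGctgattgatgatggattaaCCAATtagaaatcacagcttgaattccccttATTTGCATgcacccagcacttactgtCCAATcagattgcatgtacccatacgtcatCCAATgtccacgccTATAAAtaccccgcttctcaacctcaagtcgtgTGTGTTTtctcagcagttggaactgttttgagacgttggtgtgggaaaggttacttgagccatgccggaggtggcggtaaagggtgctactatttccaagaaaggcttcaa
Hist1h2ak to Hist1h2bn: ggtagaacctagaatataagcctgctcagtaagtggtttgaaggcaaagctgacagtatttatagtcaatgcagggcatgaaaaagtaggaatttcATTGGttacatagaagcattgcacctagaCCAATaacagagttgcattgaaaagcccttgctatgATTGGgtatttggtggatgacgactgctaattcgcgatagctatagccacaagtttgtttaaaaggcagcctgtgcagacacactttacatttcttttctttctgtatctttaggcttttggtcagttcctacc

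The targeted genes were checked first. At the Daxx site spanning its start, normalised read counts in LT-HSC 3 d.p.i. of the Daxx-KO libraries were 69.7, 109 and 61.2 and those of Daxx-WT 201 and 366, which gave a log2 ratio of group means of -1.82. In KLS the log2 ratio there was -2.00 for Daxx-KO and -1.72 for DKO. At a site in the last exon of Spi1 the DKO libraries had 2.12 and 4.68 and the Daxx-WT libraries 31.1 and 58.1, a log2 ratio of -3.71. The 5 other listed Spi1 sites were higher in DKO, with the smallest log2 ratio, 1.01, within 1 kb of the Spi1 start, where DKO had 162 and 108 and Daxx-WT 62.1 and 72.4. A peak at the Daxx and at the Spi1 start remained in all 11 lists. Among the marker genes of the sorted cells, Kit and Hlf had a promoter peak in all 11 lists, Mpo had none in the 4 LT-HSC lists and in DKO, Elane had one in the GMP lists only, and Cd3e and Ly6g had none in any list. Mecom and Ly6a, markers of stem cells and of KLS cells, had no peak within 1 kb of their annotated start in any list.

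The first question was which histone promoters were open in each cell type. One list of accessible regions (peaks) per group had been deposited, so presence and width had no replicates and no test, and the lists ranged from 22156 to 70455 peaks. Almost every canonical histone gene was open in every group. A peak lay within 1 kb of the start of 62 and 62 members in Daxx-WT and Daxx-KO LT-HSC, 61 and 62 in CMP, 61 and 60 in GMP, 61 and 62 in LT-HSC 3 d.p.i., and 60, 61 and 60 in Daxx-WT, Daxx-KO and DKO KLS. The corresponding shares of all 21938 protein-coding genes were 63.2 and 64.4%, 60.1 and 56.9%, 58.1 and 55.6%, 57.9 and 60.0%, and 54.3, 57.4 and 47.4%. In all 11 lists, 57 members (81.4%) had a peak, compared with 45.6% of protein-coding genes, and 8 members (11.4%) had one in no list, compared with 33.0%. All 13 H4 genes and 4 of the 6 H1 genes had a peak in every list. Because members share peaks, the 60 to 62 members with a peak corresponded to 44 to 49 distinct peaks per list. The peak within 1 kb of the starts of Hist1h2bl, Hist1h2ai and Hist1h3h was an example counted for 3 genes. In Daxx-WT LT-HSC it ended at chr13:21717013, before the Hist1h3h start at 21717659.

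**Figure D1:**
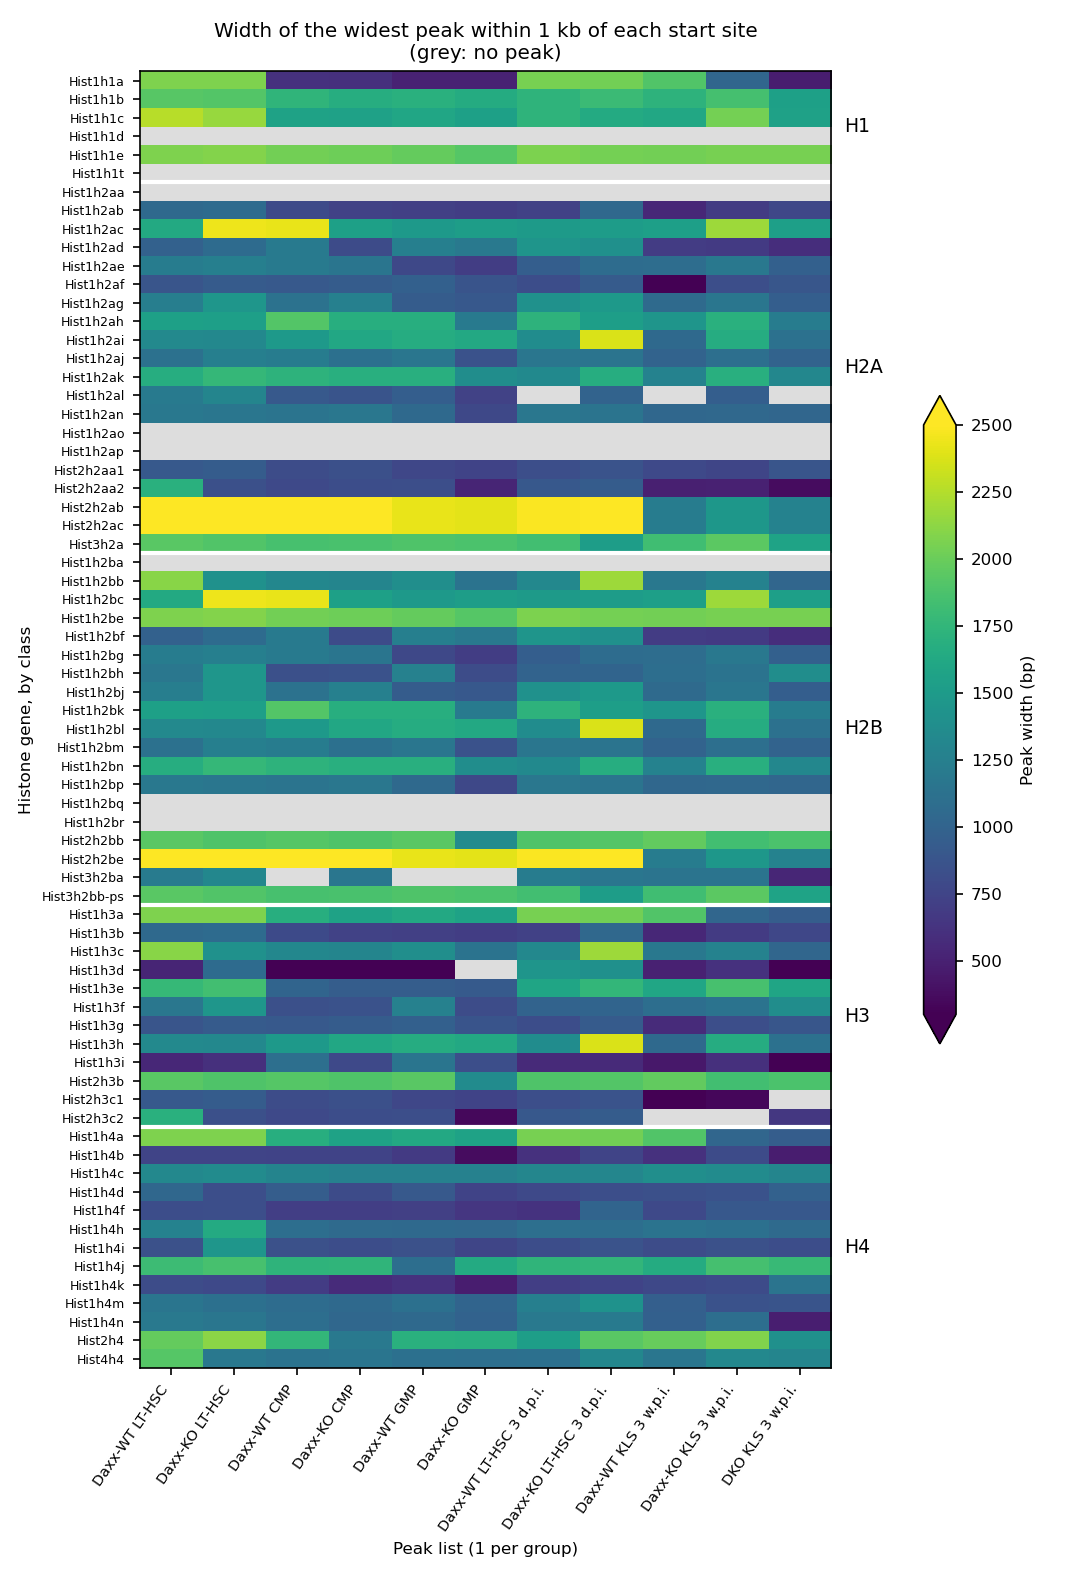
Width in bp of the widest peak within 1 kb of the start of each of the 70 histone genes (rows, by class) in the peak list of each of the 11 groups (columns), with grey for no peak and no replicates. The 8 genes without a peak in any list appear as grey rows. The widest peak within 1 kb of Hist1h1a is narrow in CMP, GMP and DKO KLS but wide in LT-HSC, with the same width there as at Hist1h3a and Hist1h4a.

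The 8 members without a peak fell into recognisable kinds. Hist1h1t, Hist1h2ba and Hist1h2aa, which encode testis-type H1, H2B and H2A, had their nearest peak at 1611 bp or more, and the divergent pair Hist1h2ba and Hist1h2aa at 17686 bp or more. Hist1h2bq, Hist1h2ao, Hist1h2ap and Hist1h2br lie in a near-identical duplication, where 0% of the 75-base words within 1 kb of the start were unique in the genome, and their nearest peaks lay 1105 to 1703 bp away. Hist1h1d had a peak at 1283 to 1381 bp in every list, and its RefSeq start lies 1770 bp from the GENCODE start. With the RefSeq start, Hist1h1d had a promoter peak in all 11 lists.

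In 5 members presence differed between lists. Hist3h2ba, an H2B gene, had a peak in both LT-HSC pairs, in KLS and in Daxx-KO CMP but not in Daxx-WT CMP or either GMP list. Hist1h2al, a pseudogene, lacked a peak in Daxx-WT LT-HSC 3 d.p.i., Daxx-WT KLS and DKO KLS. Hist1h3d was absent from the Daxx-KO GMP list only, and its peak was already narrow in Daxx-WT GMP, at 265 bp. The H3 genes Hist2h3c1 and Hist2h3c2, a pair of near-identical copies with 24.3 and 25.3% unique words, were absent from DKO and from Daxx-WT and Daxx-KO KLS respectively. Between genotypes, 0 members differed in presence in LT-HSC, 1 in CMP, 1 in GMP, 1 in LT-HSC 3 d.p.i., 1 in KLS between Daxx-WT and Daxx-KO, and 2 in KLS between Daxx-WT and DKO. The same share among protein-coding genes was 2.44, 4.78, 4.04, 3.97, 4.85 and 8.57%, and the members' counts were not above it.

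Width also varied by cell type. The median peak over members was 1332 bp wide in Daxx-WT LT-HSC, 1207 bp in Daxx-WT CMP and 1162 bp in Daxx-WT GMP, and the medians for protein-coding genes were 1386, 1136 and 1093 bp. The widest peak within 1 kb of Hist1h1a, the H1.1 gene, had the clearest contrast between cell types. This peak measured 2073 bp in both LT-HSC lists, 2048 and 2030 bp in the 3 d.p.i. lists and 1901 bp in Daxx-WT KLS. It was 612 and 606 bp in CMP, 509 and 507 bp in GMP, 1029 bp in Daxx-KO KLS and 479 bp in DKO KLS. The widths in LT-HSC, Daxx-WT KLS and Daxx-KO KLS were also those at Hist1h3a and Hist1h4a. The starts of Hist1h1a (chr13:23763666) and Hist1h4a (chr13:23761230) lie further apart than these widths, and each lay in a peak in every list. The wide peak therefore did not cover both starts, and the contrast is not shown to lie at the Hist1h1a promoter itself. Hist1h3a and Hist1h4a kept a peak of 1565 to 1676 bp in CMP and GMP, separate from that of Hist1h1a. Hist2h2ab, whose peak was shared with Hist2h2ac and Hist2h2be, was among the widest, at 2409 to 2823 bp in LT-HSC, CMP and GMP, and 1228 to 1463 bp in KLS.

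Against Daxx-WT, the median width of the histone peaks differed little. In Daxx-KO LT-HSC, 34 of 62 members were wider (67.2% of protein-coding genes were), with a median log2 width ratio of 0.01 (SD over members 0.32). In CMP, 19 of 61 were wider (25.9% of protein-coding genes), with a median of -0.03 (SD 0.19). In GMP, 3 of 60 were wider and 57 narrower, with a median of -0.07 (SD 0.27), where 26.9% of protein-coding peaks were wider. The protein-coding median in GMP was -0.04, so the histone peaks were narrower by a small amount. In LT-HSC 3 d.p.i., 41 of 61 were wider (68.4% of protein-coding genes), with a median of 0.02 (SD 0.25). In KLS, 48 of 60 members were wider in Daxx-KO (69.7% of protein-coding genes) and 27 of 59 in DKO (23.0%), with medians of 0.13 (SD 0.35) and -0.01 (SD 0.49). The Daxx-KO lists of LT-HSC 3 d.p.i. and KLS came from 3 libraries and the Daxx-WT lists from 2, and the part of the library number in the widths was not tested.

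The largest width differences lay at single promoters or shared peaks rather than at whole clusters. In LT-HSC, the widest peak within 1 kb of Hist1h3d measured 532 bp in Daxx-WT and 1069 bp in Daxx-KO. At Hist1h4i it measured 843 and 1459 bp. The Daxx-KO widths were also those at neighbours, 1069 bp at Hist1h2bf and Hist1h2ad (985 bp in Daxx-WT) and 1459 bp at Hist1h2ag and Hist1h2bj (1244 bp). These gains are therefore not shown to lie at the promoters of Hist1h3d and Hist1h4i themselves. The peak at Hist2h3c2 and Hist2h2aa2 measured 1695 bp in Daxx-WT and 841 bp in Daxx-KO. In CMP, the divergent pair Hist1h2ac and Hist1h2bc had the largest loss, with 2429 bp in Daxx-WT and 1552 bp in Daxx-KO, and Hist1h2ag and Hist1h2bj the largest gain, with 1133 and 1256 bp. In GMP, Hist1h4j was the member with a clear gain, with 1095 bp in Daxx-WT and 1644 bp in Daxx-KO. The GMP losses were largest at Hist2h3c2, with 827 and 349 bp, and at Hist1h4b, with 670 and 369 bp. At 3 d.p.i. in LT-HSC, the peak of Hist1h2bl, Hist1h2ai and Hist1h3h was 1374 bp wide in Daxx-WT and 2373 bp in Daxx-KO, and that of Hist1h3c 1327 and 2180 bp. The largest loss there was at Hist3h2a and Hist3h2bb-ps, with 1835 and 1521 bp. In KLS, the widest peak within 1 kb of the H2A gene Hist1h2af had 302 bp in Daxx-WT, 827 bp in Daxx-KO and 892 bp in DKO. The 827 and 892 bp were also the widths at the neighbouring Hist1h3g, which had 572 bp in Daxx-WT. The largest KLS loss in Daxx-KO and DKO was in the widest peak within 1 kb of Hist1h1a. In Daxx-KO the same widths were listed at Hist1h3a and Hist1h4a, so the loss is not shown to lie at the Hist1h1a promoter. Hist3h2ba measured 1148 bp in Daxx-WT and 540 bp in DKO.

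How strong the peaks were could be read in the 5 lists from LT-HSC 3 d.p.i. and KLS, which carry the peak caller's fold enrichment (column 7). By the highest value within 1 kb of each start, histone promoters were of middling strength among all peaks of each list. The H3 and H4 class medians lay below the H2B median in each list. The median over members was 6.21 in Daxx-WT LT-HSC, 7.23 in Daxx-KO LT-HSC, and 5.70, 5.96 and 4.93 in Daxx-WT, Daxx-KO and DKO KLS, compared with 9.26, 9.67, 7.46, 8.41 and 6.58 at protein-coding promoters. As percentiles among all peaks of the list, these were 49.8, 60.3, 50.5, 44.7 and 50.1 for histone genes and 78.6, 79.9, 75.9, 76.7 and 75.6 for protein-coding genes. An interval listed more than once was given its highest value. With the mean in its place, the histone percentiles were 53.2, 53.5, 33.8, 29.8 and 43.3. Ranked among promoter peaks alone, they were 25.2, 32.7, 28.6, 26.0 and 24.8. In Daxx-WT KLS the median fold enrichment was 6.69 at H2B, 5.86 at H2A, 5.75 at H1, 5.10 at H4 and 4.81 at H3 genes. Except in H1, the spread within a class was wider than the differences between class medians. H2A genes ran from 2.63 at Hist1h2af to 9.91 at Hist1h2ah, H2B genes from 4.73 at Hist1h2bf to 9.91 at Hist1h2bk, and the 2 highest values are 1 peak, shared by that divergent pair. H1 genes ran from 4.81 at Hist1h1a to 6.44 at Hist1h1b. H3 genes ran from 2.90 at Hist2h3c1 to 9.12 at Hist1h3e, and H4 genes from 3.93 at Hist1h4i to 9.66 at Hist1h4n.

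**Figure D2:**
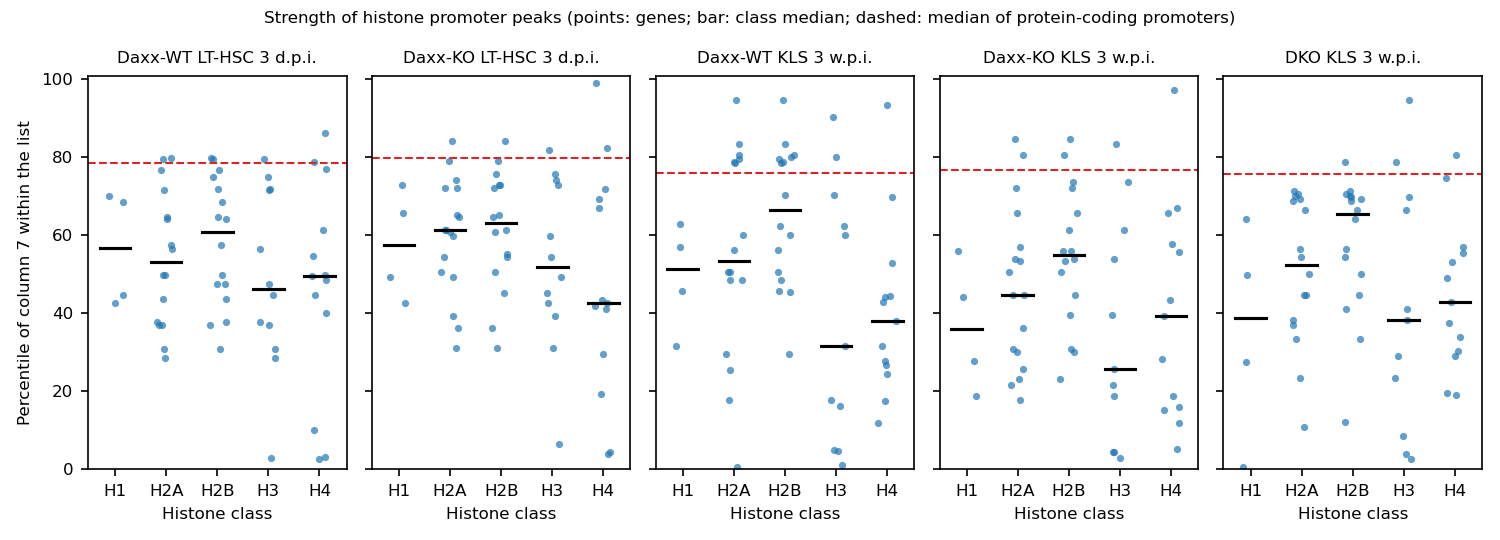
Percentile of peak fold enrichment (column 7) within each list (y axis, 0 to 100) for histone genes by class (points, 1 per gene; bars, class median) in the 5 lists that carry it, with the dashed line at the median of protein-coding promoters. The class medians lie below the dashed line in all 5 lists, and the H2B median lies above the H3 median in each.

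Between genotypes, fold enrichment at histone promoters moved close to that of all promoters in LT-HSC and in DKO, and lay further from it in Daxx-KO KLS. In LT-HSC 3 d.p.i. it was higher in Daxx-KO at 48 of 61 members (78.7%), where 74.2% of protein-coding promoters were higher, with a median log2 ratio of 0.09 against 0.08. These were 15 of 16 H2A, 14 of 16 H2B, 10 of 12 H3, 7 of 13 H4 and 2 of 4 H1 genes. In KLS it was higher in Daxx-KO at 31 of 60 members (51.7%), where 89.1% of protein-coding promoters were higher, with a median log2 ratio of 0.01 against 0.21. The members' percentile within the list was mostly lower in Daxx-KO KLS, with a median difference of -6.64 points. In DKO KLS it was higher at 11 of 59 (18.6%), where 14.4% of protein-coding promoters were higher, with a median of -0.29 against -0.24. With 1 list per group none of these differences could be tested.

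Values for each library were available at the sites that the authors had listed as differing between genotypes, for LT-HSC 3 d.p.i. and for both KLS comparisons. A site entered a table because these same libraries differed there, so direction and size describe selected sites, and a gene without a site is not shown to be unchanged. The values are reads per library after scaling by the authors.

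In LT-HSC 3 days after induction, most histone genes had a listed site, nearly always with more reads in Daxx-KO. A site lay in the gene or within 1 kb of it for 40 members (57.1%), at 23 distinct sites. It was higher in Daxx-KO for 37 members (52.9%), compared with 8.34% of protein-coding genes, and lower for 3 (4.29%), compared with 17.2%. Within 1 kb of the start the shares were 51.4% higher against 1.87%, and 2.86% lower against 1.69%. By class, 4 of 6 H1, 13 of 20 H2A, 10 of 19 H2B, 6 of 12 H3 and 4 of 13 H4 genes had a higher site. Of the 23 sites, 21 overlapped a peak and 21 overlapped the coding part of a histone gene. Direction in this table depended on where a site lay: 29.1% of all 11927 listed sites were higher in Daxx-KO, but 68.6% of the 471 listed sites that lay at a protein-coding start and in a peak were. The histone sites also held more reads than most listed sites, with a median of 362 against 29.8 over all sites and 131 over those promoter sites.

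The 21 higher sites had log2 ratios of 0.19 to 0.86 with a median of 0.49, below the median of 0.90 over all higher listed sites, and the Daxx-KO libraries lay above both Daxx-WT libraries at each of them. At 22 of the 23 sites (95.7%) the groups did not overlap, which was so for 99.5% of all listed sites. The limma test, with Benjamini-Hochberg adjustment over the 413247 windows tested by the authors, called 0 of the 23 sites and 0% of all listed sites in either direction, with a lowest adjusted p of 0.301. At an unadjusted p under 0.05 it gave 8 higher and 1 lower, which was 39.1% of the histone sites and a smaller share than the 96.0% of all listed sites.

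The H1 genes with a higher site, Hist1h1a, Hist1h1b, Hist1h1d and Hist1h1e, encode linker histones, which bind the DNA between nucleosomes. At the coding exon of Hist1h1d (chr13:23554601-23555500) Daxx-KO had 310, 320 and 315 reads and Daxx-WT 211 and 234, giving a log2 ratio of 0.50. A second site nearby, in the coding exon of Hist1h3e and within 1 kb of Hist1h1d (chr13:23561401-23562050), had 111, 103 and 94.0 against 62 and 64.7, a log2 ratio of 0.70. The groups were apart at both, and the 3 Daxx-KO values at Hist1h1d lay close together. Hist1h1b, whose promoter is printed above, had 179, 149 and 137 against 110 and 95.7 over its start and coding exon (0.59). Hist1h1a had 187, 198 and 150 against 126 and 116 (0.56), and the widest peak within 1 kb of its start was 2030 and 2048 bp. The site over Hist1h1e and the start of Hist1h2be had 712, 555 and 495 against 446 and 430 (0.42).

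H2A and H2B genes mostly shared a site over the promoter between them. Between Hist1h2ak and Hist1h2bn (chr13:21753401-21754450), the region printed above, Daxx-KO had 777, 808 and 596 reads and Daxx-WT 485 and 529, giving a log2 ratio of 0.52. Hist1h2ae and Hist1h2bg had 670, 545 and 459 against 379 and 396 (0.53), Hist1h2ad and Hist1h2bf with the neighbouring H3 gene Hist1h3d 725, 753 and 546 against 490 and 470 (0.49), and Hist1h2ah and Hist1h2bk 552, 579 and 450 against 380 and 398 (0.44). In these 4 pairs the third Daxx-KO library was the lowest of its group and still above both Daxx-WT libraries. It was also the lowest Daxx-KO library at most of the other higher sites in LT-HSC. The exceptions were the sites at the coding exon of Hist1h1d and at Hist1h2ac, Hist1h3c and Hist1h4d. The largest ratio of all was at Hist1h2ac, an H2A gene, in an exon without coding sequence 1373 bp from its start (chr13:23682151-23683000), where 164, 86.9 and 117 stood against 76.6 and 59.1 (0.86), outside any peak. Outside cluster Hist1, the divergent Hist3h2a and Hist3h2bb-ps had 556, 542 and 440 against 367 and 384 (0.45), and the pair Hist2h2ac and Hist2h2be 630, 633 and 466 against 448 and 445 (0.37).

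Of the H3 genes with a higher site 1 of 6, and of the H4 genes 3 of 4, had one at which no other member lay. Hist1h3c (chr13:23745001-23745650) had 230, 208 and 213 reads without Daxx and 156 and 150 with it, a log2 ratio of 0.51. The site over Hist1h3b and within 1 kb of the H2A gene Hist1h2ab had 389, 299 and 283 against 217 and 198 (0.64). Hist1h4d had 396, 388 and 393 against 288 and 298 (0.42), with closely spaced values, and Hist1h4c 410, 397 and 376 against 356 and 338 (0.19), the smallest ratio. Hist2h4 had 439, 364 and 331 against 263 and 292 (0.45).

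**Figure D3:**
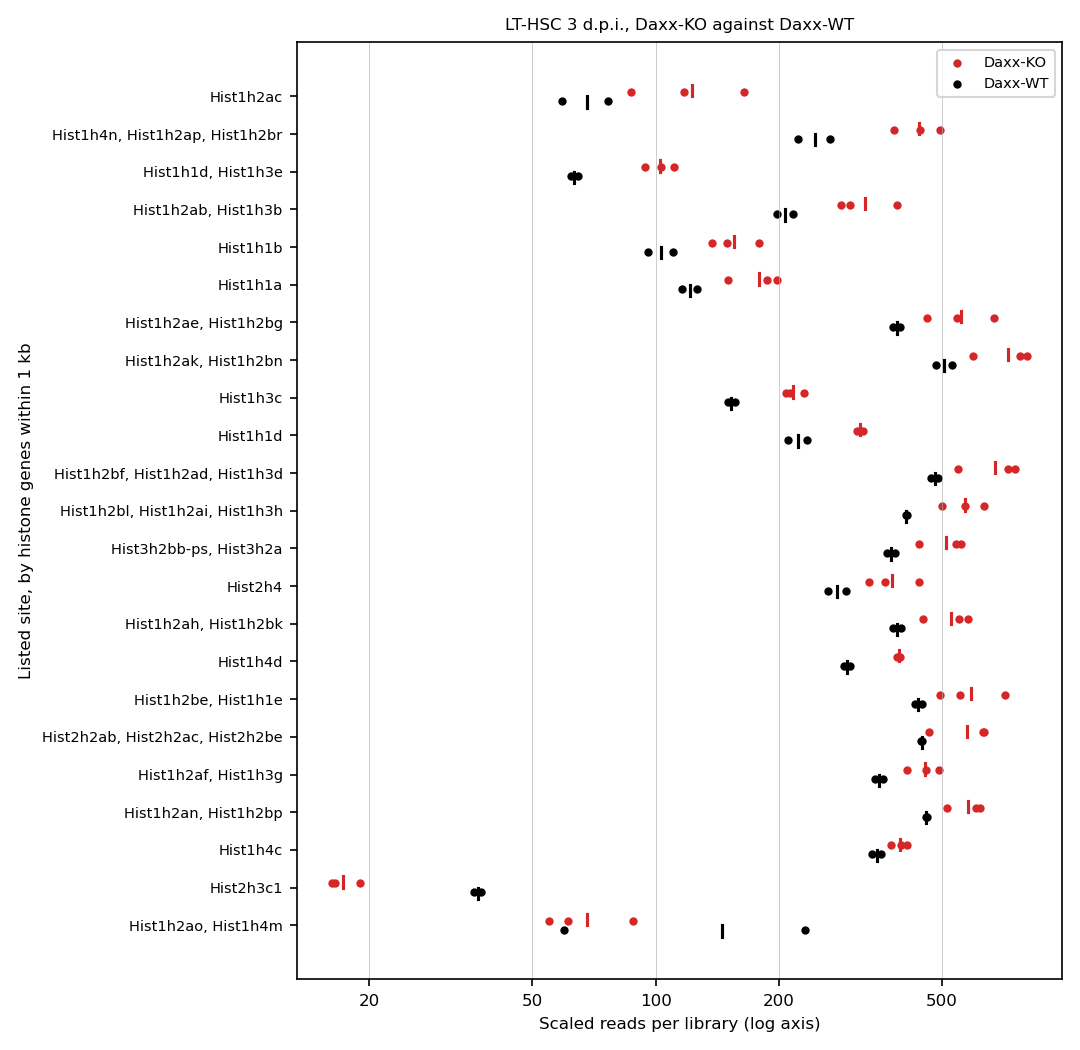
Scaled reads of each library (x axis, log scale) at the 23 sites listed by the authors in or within 1 kb of a histone gene in LT-HSC 3 d.p.i., with Daxx-KO in red and Daxx-WT in black, points for libraries and bars for group means. At 21 sites every Daxx-KO point lies to the right of both Daxx-WT points, and at the site of Hist1h2ao and Hist1h4m the 2 Daxx-WT libraries lie far apart.

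The duplicated stretch of cluster Hist1 behaved unevenly, and reads there cannot be assigned to 1 copy with certainty. At Hist1h4n, within 1 kb of the copies Hist1h2ap and Hist1h2br (chr13:21831501-21832750), Daxx-KO had 443, 496 and 381 reads and Daxx-WT 267 and 223, giving a log2 ratio of 0.84. At the near-identical Hist1h4m, within 1 kb of Hist1h2ao (chr13:21811351-21812200), they had 88.1, 61.1 and 54.9 against 59.7 and 231, a ratio of -1.09 that rested on 1 Daxx-WT library and became 0.19 without it. The unique share of 75-base words was 13.6% at Hist1h4n and 11% at Hist1h4m. Summed over both sites the values were 531, 557 and 436 against 327 and 454, a log2 ratio of 0.38 with overlapping groups. The other lower site lay 3115 bp from the start of Hist2h3c1, outside any gene or peak, with 16.5, 16.2 and 19.0 against 36.1 and 37.5 (-1.09). Without the 10 members that had under 50% unique words, 34 members had a higher site and 0 a lower one.

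Scaling by the mean reads per window, in place of the authors' factor, moved the median of all listed sites up by 0.41 on the log2 scale and left 21 histone sites higher and 2 lower, the higher ones then with ratios of 0.64 to 1.37 and a median of 0.94. Among the marker lists in this table, 1 of 6 LT-HSC markers had a higher site and 4 a lower one, the KLS markers 1 and 1 of 4, the CMP and GMP markers 0 and 0 of 6, and the markers of other cells 2 (Ebf1 and Klrb1c) and 0 of 7. Their part in the result was not tested. Inside the chromosome 13 and chromosome 3 blocks, 2 listed sites lay at no histone gene, both higher. Of the 9 other protein-coding genes in the blocks, such as the Slc17a transporters and Hfe, 1 had a higher site within 1 kb of its start and 0 a lower one.

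**Figure D4:**
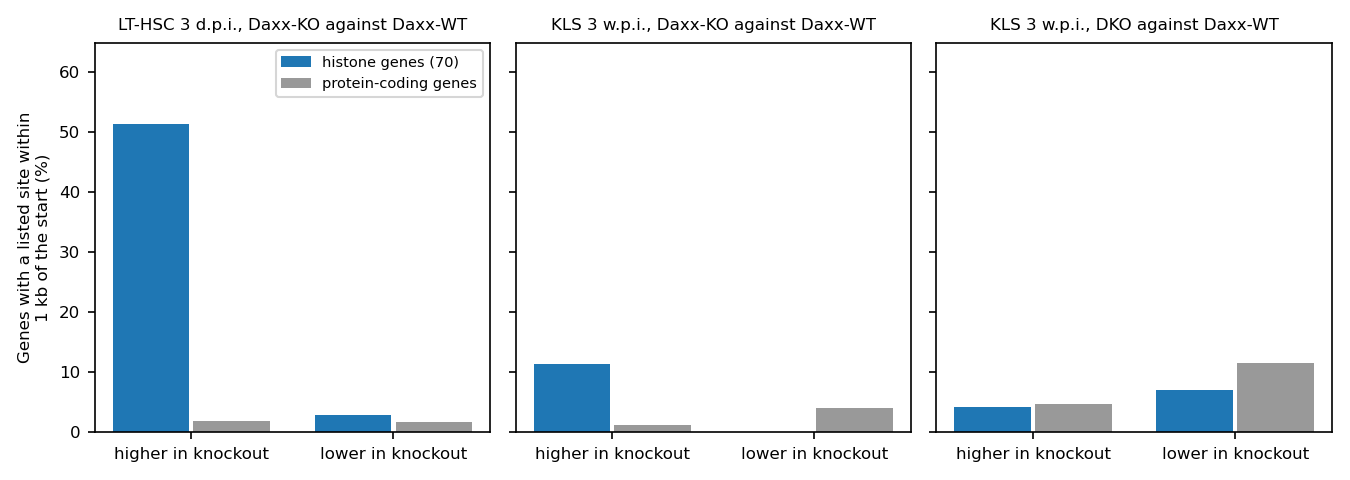
Percentage of genes with a listed site within 1 kb of the start (y axis), higher or lower in the knockout, for the 70 histone genes (blue) and all protein-coding genes (grey) in the 3 site tables. The blue bar for higher sites in LT-HSC 3 d.p.i. is 51.4% against 1.87%, and in DKO both blue bars lie below the grey ones.

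In KLS 3 weeks after induction, fewer histone genes were listed, and again mostly with more reads in Daxx-KO. A higher site was present at 11 members (15.7%; 6.93% of protein-coding genes) and a lower one at 1 (1.43%; 27.7%), at 8 distinct sites. Within 1 kb of the start the shares were 11.4% higher against 1.18%, and 0 members lower against 4.08%. Hist1h1a had 163, 159 and 130 reads without Daxx and 100 and 88.3 with it, a log2 ratio of 0.67. The site overlapped its higher LT-HSC site, while the widest peak within 1 kb of its start was narrower in Daxx-KO. Hist1h4n, within 1 kb of Hist1h2ap, had 90.2, 113 and 83.7 against 55.6 and 53.9 (0.80). Between Hist1h2bg and the pair Hist1h2bf and Hist1h2ad, in no peak, 115, 106 and 81.8 stood against 55.6 and 59.6 (0.81). The groups were apart at these 3 sites. Next to Hist1h2ag and Hist1h2bj, 986 bp from the nearer start, there were 117, 123 and 105 against 70.2 and 69.9 (0.72), and at Hist1h4a, within 1 kb of Hist1h3a, 170, 262 and 207 against 123 and 136 (0.72).

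At the other 3 KLS sites the libraries were less even. Over the promoter of Hist1h2bf and Hist1h2ad the Daxx-KO libraries had 178, 360 and 268 and the Daxx-WT libraries 191 and 189 (0.50), so that the groups overlapped. At Hist1h4b 210, 368 and 341 stood against 210 and 206 (0.56), with the first Daxx-KO library at the Daxx-WT level. The single lower site lay in an intron annotated for Hist1h2be, 11749 bp from its start, with 14.5, 14.0 and 6.58 against 27.4 and 26.4 (-1.20). The groups did not overlap at 7 of the 8 sites (87.5%; 99.6% of all listed sites). The limma test called 0 of the 8 sites, and 0% of all listed sites in either direction, with a lowest adjusted p of 0.364. At an unadjusted p under 0.05 it gave 4 higher and 1 lower, 62.5% of the histone sites against 96.8% of all listed sites. Scaled by the mean reads per window, which moved the median of all sites up by 0.50, 7 histone sites were higher and 1 lower, and the higher ratios were 1.19 to 1.41 with a median of 1.29. Of the listed sites in the histone blocks that lay at no histone gene, 0 were higher and 6 lower. Of the CMP and GMP markers 0 of 6 had a higher site and 4 a lower one in the same table, of the LT-HSC markers 1 and 3 of 6, of the KLS markers 1 and 2 of 4, and of the markers of other cells 1 (Ebf1) and 2 (Cd3e and Itgam) of 7, with a gene able to count in both directions. Their part in the result was not tested.

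The LT-HSC 3 d.p.i. and KLS tables of Daxx-KO shared 6 members with a higher site, which was 16.2% of the 37 and 54.5% of the 11. They were Hist1h1a, Hist1h2ad, Hist1h2ap, Hist1h2bf, Hist1h2bg and Hist1h4n, and 3 pairs of sites overlapped in position. These tables use separate libraries, and were scaled separately, so levels were not compared between them. Hist1h4n and Hist1h2ap were counted through the same site in each comparison. It lies in the duplicated stretch, where reads cannot be assigned to a copy with certainty. Another of the overlapping pairs lies over the promoter of Hist1h2bf and Hist1h2ad, where the groups overlapped in KLS.

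In KLS lacking both Daxx and Pu.1, 11 histone genes (15.7%) had a listed site, and these pointed in both directions. A higher site was present at 5 members (7.14%; 41.2% of protein-coding genes) and a lower one at 6 (8.57%; 26.0%), at 7 distinct sites. These shares count sites anywhere in a gene, so they depend on gene length, which was not matched. Within 1 kb of the start 4.29% were higher against 4.76% and 7.14% lower against 11.5%. The 4 higher sites lay in no peak, and the 3 lower ones lay in peaks. Of all sites listed for DKO, 72.1% were higher in DKO, but 14.3% of those at a protein-coding start and in a peak. The comparison used the same 2 Daxx-WT libraries as the Daxx-KO comparison in KLS, and the values of each are given on their own.

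The 3 lower sites overlapped histone genes. At the divergent promoter of Hist1h2ac and Hist1h2bc the DKO libraries had 320 and 183 and the Daxx-WT libraries 359 and 376, a log2 ratio of -0.55. At Hist1h3a, within 1 kb of Hist1h4a, they had 163 and 71.2 against 194 and 191 (-0.72). In an exon of Hist1h4c without coding sequence, within 1 kb of Hist1h1t, they had 50.9 and 43.1 against 80.8 and 91.0 (-0.87). The second DKO library was well below the first at both promoters. The peak shared by Hist1h3a and Hist1h4a was 953 bp wide in DKO.

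The 4 higher sites lay outside coding sequence. At Hist2h3c1 there were 52.0 and 68.4 reads in DKO and 31.1 and 24.1 in Daxx-WT, a log2 ratio of 1.12 that limma called (SE 0.36, adjusted p = 0.0266). Between Hist1h4k and Hist1h2ak there were 96.5 and 109 against 47.0 and 51.5 (1.06), also called (limma, SE 0.36, adjusted p = 0.0408). Near Hist1h4i, 74.2 and 74.0 stood against 31.9 and 41.7 (1.01; limma, adjusted p = 0.0554), and near Hist2h3c2, 110 and 106 against 62.1 and 69.1 (0.72). Limma thus called 2 of the 7 sites, both higher, where 67.3% of all listed sites were called higher and 14.9% lower. The groups did not overlap at 7 of 7 sites (100% of all listed sites). Of the 75-base words within 1 kb of the start, 24.3% were unique at Hist2h3c1 and 25.3% at its near-identical copy Hist2h3c2. The sites listed for these copies lay outside that window, and the unique share of the sites themselves was not measured. Their reads are therefore not shown to come from the named copy. Scaled by the mean reads per window, which moved the median of all sites down by 0.69, the calls were 0 higher and 1 lower, the 4 higher ratios were 0.05 to 0.40, and the split of all calls went from 34252 higher and 7603 lower to 3310 and 13843. The 2 calls were also reduced to 0 without either DKO library and to 1 without either Daxx-WT library. Of the LT-HSC markers 4 of 6 had a higher and 3 a lower site in DKO, of the KLS markers 1 and 2 of 4, of the CMP and GMP markers 5 and 2 of 6, and of the markers of other cells 3 and 2 of 7, and their part in the result was not tested.

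**Figure D5:**
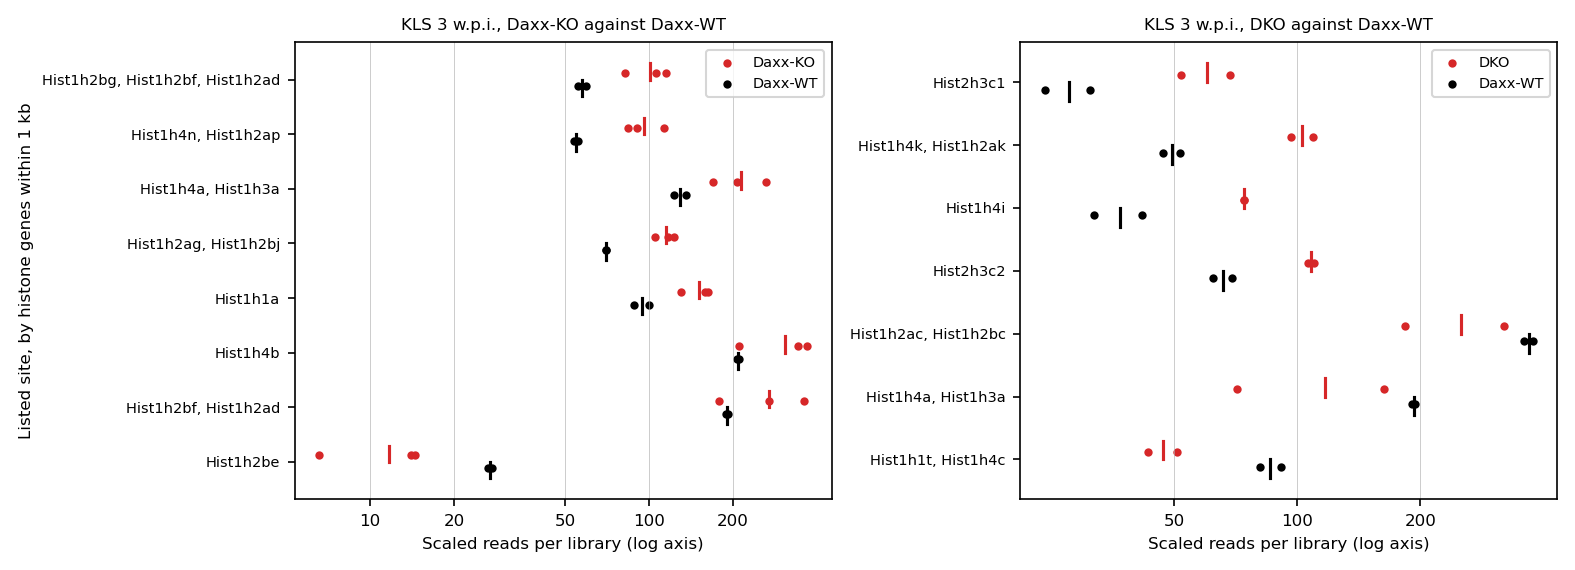
Scaled reads of each library (x axis, log scale) at the listed sites in or within 1 kb of a histone gene in KLS 3 w.p.i., for Daxx-KO against Daxx-WT (left, 8 sites) and DKO against Daxx-WT (right, 7 sites), with points for libraries and bars for group means. The Daxx-KO points lie to the right of the Daxx-WT points at 6 sites, and overlap them at Hist1h2bf and Hist1h2ad, and the DKO points lie to the right at 4 sites and to the left at 3.

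Genes that act on histone genes or histones were taken from fixed lists for comparison. Of 16 genes for histone gene transcription and 3′ end processing, 14 had a promoter peak in all 11 lists, including Npat, Slbp and Casp8ap2. All 11 histone chaperone genes listed, such as Chaf1a, Asf1b and Nasp, had one in all 11, as did 9 of 11 replication-independent variants, compared with 45.6% of protein-coding genes. In LT-HSC 3 d.p.i., 3 processing genes had a higher site and 3 a lower one, the chaperones 1 and 3, and the variants 1 and 1, beside 8.34 and 17.2% of protein-coding genes. The 3 of these genes with a site within 1 kb of the start were higher there in Daxx-KO. Eri1, the exonuclease that trims histone mRNA ends, had 214, 188 and 177 against 121 and 133 (0.61), Nfya, a subunit of NF-Y, 313, 333 and 304 against 246 and 272 (0.29), and the H3.3 gene H3f3a 429, 452 and 349 against 305 and 308 (0.42). In Daxx-KO KLS, 1 processing gene had a higher and 6 a lower site, the chaperones 0 and 5, and the variants 1 and 3, beside 6.93 and 27.7% of protein-coding genes. The U7 snRNP gene Lsm11 was lower at its promoter there, with 25.6, 15.8 and 30.1 against 64.8 and 44.7 (-1.20), and the chaperone gene Cabin1 had a log2 ratio of -1.11 within 1 kb of its start. In DKO the counts were 10 and 5, 7 and 2, and 5 and 4, beside 41.2 and 26.0%, with a gene able to count in both directions. Promoter sites were lower at Lsm10 (-0.92), Lsm11 (-0.93) and Sympk (-0.73), components of histone 3′ end processing, and higher at H2afx, with 171 and 158 against 77.2 and 87.7 (1.00). Within 1 kb of the start, H3f3b, the second H3.3 gene, was also higher (1.10), and the variant genes H2afy2 (-0.98) and Cenpa (-0.69) were lower.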

How the data were processed

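ATAC-seq libraries of sorted bone marrow cells were analysed from 11 deposited peak lists, 1 per group, and 3 deposited tables of differential sites. The labels name mm10, CASAVA 1.8.4, cutadapt 1.13, STAR 2.5.3 and bedtools, without roles. In 6 lists (LT-HSC, CMP, GMP) the authors deposited positions only, and the peak caller is not given in the sources used here. The 5 other lists are reproducible-peak (IDR) lists in which column 7, a ratio (fold enrichment), was set by the authors' caller. The site tables came from diffReps per the file headers: windows of 600 bp moved by 50 bp, fragment size 100, a negative binomial test and p below 0.0001. They hold each library's read count divided by a factor of the authors, and low values were whole multiples of 1 read. The authors' fold changes, p-values and event columns were not used. Total depth per library is not given in the site tables, whose headers give 4.21 to 16.0 mean reads per window.

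The 70 members and the comparison lists were chosen with earlier results of these data known. A promoter peak was the widest peak within 1 kb of the GENCODE start. Promoter strength was the highest column 7 value of any peak in that window. A site belonged to a gene if it lay in the gene or within 1 kb of it, with at least 1 bp of overlap. Shares of genes with a site by this rule depend on gene length, which was not matched between histone and other genes. Shares within 1 kb of the start use the same window for every gene. Site direction is the sign of the difference of group means. The test was limma 3.58.1 (R 4.3.3) on log2(value + 1), fitted per table over all its sites without a replicate term, and its adjusted p-values count all windows the header gives as tested. The sites were selected on the same libraries, so this test is not independent. It was tested on simulated data, where it rarely called ratios larger than that of any histone site. A site that was not called is therefore not shown to be unchanged. Few sites were changed in the simulation, while limma called most listed sites of the DKO table, so the simulation does not describe that table. Library numbers in the KLS tables were checked for pairing: the deviations of same-numbered libraries correlated at 0.03 and -0.00, so the numbers were not treated as pairs. The LT-HSC 3 d.p.i. libraries are given in header order. The study's methods describe the libraries of a group as biological replicates, and name no pairing of replicates between genotypes. Genes were named as follows: members without a peak or with presence that differed, class extremes of column 7 in Daxx-WT KLS, the 2 largest width gains and losses per comparison, and all members with a site, or the 6 largest ratios per direction where over 12 had one. Sites of other members in the LT-HSC table, the printed promoters and Hist2h2ab were chosen after their values were seen. Alternatives were another window, pseudocount, scaling, filter and adjustment, and leaving out each library. Python 3.11.15 with pandas 2.3.3 was used.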

Additional observations from a re-analysis of the deposited data

How the results depend on the processing

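Presence and site counts at histone genes were recomputed under other windows, start sites, filters, scalings and adjustments, and 169 recomputed values stayed within the spread or the 1.5-fold limit allowed for counts while 24 did not. For widths and percentiles the spread was the SD over members. It describes differences between genes and is not an error of the median, so a median within it can still have moved. Restricting each list to the stronger peaks by column 7 lowered the members with a peak to 29 and 39 in Daxx-WT and Daxx-KO LT-HSC 3 d.p.i. and to 32, 29 and 31 in Daxx-WT, Daxx-KO and DKO KLS. Ranked among promoter peaks alone, the median percentile was 25.2, 32.7 and 24.8 in Daxx-WT LT-HSC 3 d.p.i., Daxx-KO LT-HSC 3 d.p.i. and DKO KLS. The ranks of 28.6 and 26.0 in Daxx-WT and Daxx-KO KLS stayed within this wide spread, although they were 50.5 and 44.7 among all peaks. With sites required to overlap the gene, the LT-HSC table had 1 member lower, Daxx-KO KLS 6 higher and DKO 1 higher, and with sites within 1 kb of the start Daxx-KO KLS had 0 lower and DKO 3 higher. With members of at least 50% unique words, chosen after seeing the data, LT-HSC had 0 lower and DKO 3 higher. Adjusted over the listed sites alone, limma called 8, 4 and 6 member sites in the LT-HSC, Daxx-KO KLS and DKO tables, beside 95.8, 96.5 and 98.2% of all listed sites, and scaled to the mean reads per window it called 1 in DKO, lower, in place of the 2 higher. That scaling turned the ratio of no histone site, but 1 of 3 Chaf1b sites in Daxx-KO KLS went from -0.55 to 0.05, and leaving out 1 library turned the site at Hist1h4m. The cause of the changes was not tested. Without 1 library in turn, members lower in LT-HSC ranged from 1 to 3 and limma calls in DKO from 0 to 1. With a pseudocount of 5, limma called 3 member sites in DKO and, over all Daxx-KO KLS sites, 539 higher and 3824 lower, where 0 were called with a pseudocount of 1. With a replicate block, limma called 0 member sites in Daxx-KO KLS and 3 in DKO, and 223 higher and 2073 lower over all Daxx-KO KLS sites. Count tests were not run, since the library values are joined in 1 cell and scaled. Peak lists have no replicates, so width and presence carry no error.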
